A study of Mus musculus with 6 samples.

Results

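The MYC and MAX network is a family of transcription factors that compete for the partner protein MAX and for the same DNA site. It was taken here as 10 genes, Myc, Mycn, Mycl, Max, Mga, Mnt, Mxd1, Mxd3, Mxd4 and Mxi1. Its members were found on the array by the gene symbol that the platform annotation gives each probe. All 10 were represented, by 16 of the 45281 probes, among 19057 genes with a named probe. The study treated male mice of the strain C57/129 with JQ1 at 50 mg/kg or with vehicle every day for 6 weeks, from 6 to 12 weeks of age. Whole testis RNA was read on 6 bead arrays, and came from 2 mice given vehicle, the controls, and 3 given JQ1. Control mouse 1 was measured on 2 arrays, a technical replicate pair that was averaged and counted as 1 mouse. JQ1 is a small molecule that occupies the acetyl-lysine pocket of the BET bromodomain proteins, of which BRDT is the testis-specific member.

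MYC, MYCN and MYCL are growth-promoting basic helix-loop-helix leucine zipper proteins that bind DNA only as a dimer with MAX, at a short palindrome called the E-box, CACGTG. MNT, the MXD proteins and MXI1 also pair with MAX at this site, but recruit the SIN3 and histone deacetylase corepressor, and MGA joins MAX to a Polycomb complex that silences germline genes in embryonic stem cells. In the testis, MYC family proteins are known for roles in spermatogonia, and in several cancer cell types BET inhibitors lower Myc transcription. Testes of JQ1-treated mice therefore raise the question of which network members can be measured at all, and which differed between the groups.

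Between 17799 and 20326 probes were detected per array at a detection p under 0.05. The detection p is the share of negative-control beads at least as bright as the probe. A mouse was counted as positive for a probe if at least 1 of its arrays was, and the filter kept the 20901 probes that at least 2 of the 5 mice were positive for, covering 11755 genes. Across kept probes the SD of the difference between the 2 arrays of control mouse 1 was 0.28 on the log2 scale. Between the mean of these 2 arrays and the array of control mouse 2 it was 0.32. A mean varies less than a single array, so the 2 values are not measured alike. Nothing in the labels says whether mice were litter mates. The p-values below rest on these 5 mice alone, with each probe's variance drawn towards that of kept probes of similar intensity.

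Detection divided the network sharply. Of the 16 probes, 6 were detected on no array and 6 on all 6 arrays, and the other 4 were detected on some. The probes never detected were both probes of Myc, those of Mycn and Mxd3, and 1 probe each of Mga and Mxd1. For the first Myc probe the detection p on the control arrays was 0.0716 and 0.918 for mouse 1 and 0.606 for mouse 2, and it was 0.295, 0.447 and 0.700 in JQ1 mice 1, 2 and 3. The brightest of these readings, on the first array of control mouse 1, was not repeated on the second array of the same RNA. For the second Myc probe it ran from 0.484 to 0.963, for Mycn from 0.362 to 0.977, and for Mxd3 from 0.301 to 0.894. The undetected Mga and Mxd1 probes ranged from 0.169 to 0.827 and from 0.201 to 0.771.

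The probes detected on every array were the 3 probes of Mxd4, 2 of the 3 probes of Mxd1 and the probe of Mxi1. All arrays had a detection p of 0 for the 3 Mxd4 probes, which means that no negative-control bead was as bright. The other 4 probes were near background, and none was detected in every mouse of a group and in no mouse of the other. Mycl was detected only in JQ1 mice 2 and 3, at 0.0160 and 0.0192, and JQ1 mouse 1 just missed the limit at 0.0513. The controls gave 0.0972 and 0.0855 on the 2 arrays of mouse 1 and 0.327 in mouse 2. Max was likewise detected only in JQ1 mice 2 and 3, at 0.0128 in each, while JQ1 mouse 1 gave 0.158 and the control arrays 0.231, 0.121 and 0.110. Mnt was detected on both arrays of control mouse 1, at 0.0342 and 0.0107, also in the other control, at 0.0288, and in JQ1 mouse 2, at 0.0224. JQ1 mice 1 and 3 gave 0.0908 and 0.0620 for it. The better of the Mga probes was detected in JQ1 mouse 1 alone, at 0.0278, so that it did not reach the filter. In all, 9 probes of 6 genes were kept, namely Mycl, Max, Mnt, Mxd1, Mxd4 and Mxi1.

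**Figure D1:**
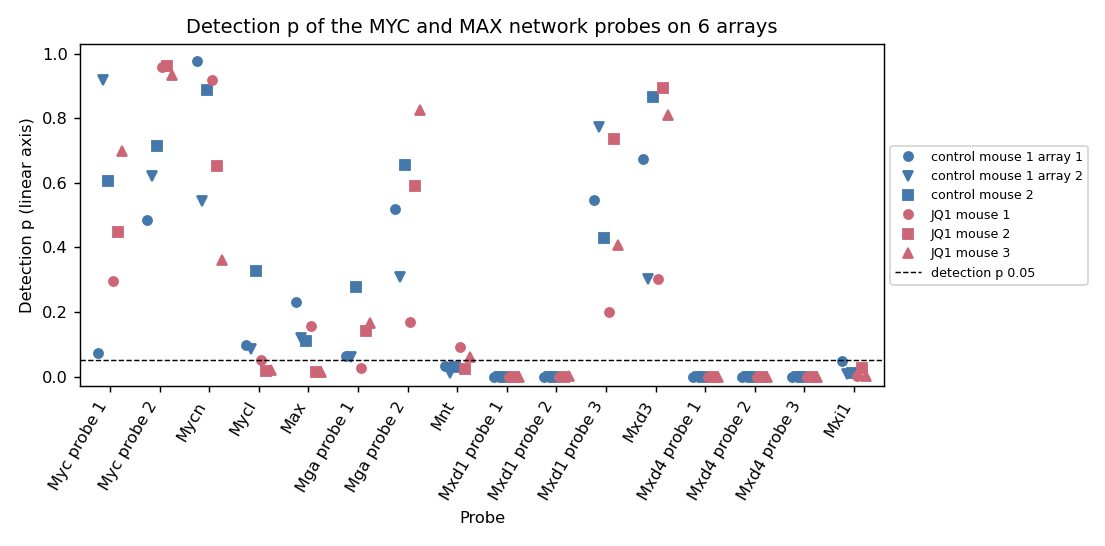
Detection p (vertical axis, linear) of each of the 16 network probes (horizontal axis) on the 6 arrays, blue for control and red for JQ1, with a dashed line at 0.05. The probes of Myc, Mycn and Mxd3 lie above the line on all 6 arrays, the Mxd4 probes lie at 0, and Mycl and Max cross the line only in JQ1 mice 2 and 3.

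The DNA site that these proteins share also occurs in front of some of their own genes. RefSeq windows of 300 bases, from 250 before to 50 after each annotated start in GRCm38.p6, were searched for CACGTG, which reads the same on both strands. Such a window was given for 9 of the 10 genes, all but Myc, as 11 windows. It held the E-box for 3 genes, Mxd4, Mnt and Max, whereas 2187 of all 27025 genes (8.09%) and 2349 of 32851 windows (7.15%) did. The match is a description of the letters, and binding was not measured. For Mxd4, the gene with the strongest signal changes, the 250 bases before the start are shown, chr5:34187711-34187960 on the minus strand. The E-box, in capitals, is centred 216 bases before the start.
Mxd4: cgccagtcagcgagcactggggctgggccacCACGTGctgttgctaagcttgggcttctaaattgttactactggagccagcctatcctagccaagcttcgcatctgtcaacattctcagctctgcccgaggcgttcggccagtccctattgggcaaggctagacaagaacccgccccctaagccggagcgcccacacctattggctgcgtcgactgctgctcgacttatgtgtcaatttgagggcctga
For Mnt and Max the site is shown with 15 flanking bases on either side. These are chr11:74830786-74830821 on the plus strand, centred 120 bases before the start, and chr12:76962231-76962266 on the minus strand, where the E-box lies across the annotated start.
Mnt: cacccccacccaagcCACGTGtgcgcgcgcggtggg
Max: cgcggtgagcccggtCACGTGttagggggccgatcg

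Among the activators, Myc and Mycn had no reading above background and therefore no fold change. The first Myc probe had a normalized level of 4.79 and 4.56 in control mice 1 and 2 and 4.69, 4.63 and 4.51 in JQ1 mice 1, 2 and 3, on a log2 scale on which the dimmest detected probes of each array lay between 5.05 and 5.34. The second Myc probe was at 4.57 and 4.51 in the controls and 4.37, 4.37 and 4.40 with JQ1. Every one of these values lay under the level at which any probe was detected, and a difference in Myc between the groups was not detectable on these arrays. Mycn, which is known from neuroblastoma and from embryonic progenitors, read 4.47 and 4.43 in the controls and 4.42, 4.54 and 4.65 with JQ1, again below detection throughout.

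Mycl, the MYC paralog first found amplified in lung cancer, was the only activator that could be tested. Its normalized log2 level was 5.02 and 4.71 in control mice 1 and 2 and 5.09, 5.37 and 5.33 in JQ1 mice 1, 2 and 3. All JQ1 mice were above both controls, and the closest values of the groups lay near each other. The probe passed the filter only through JQ1 mice 2 and 3, so this order is no support for a rise. The means were 4.86 ± 0.22 (SD, n = 2) and 5.26 ± 0.15 (SD, n = 3), and the log2 difference of 0.40 (SE 0.21) did not pass the test, with a limma adjusted p of 0.124 and a 95% interval from -0.033 to 0.83. Because no control array detected Mycl, the ratio was also taken at a bound, which was 1.00-fold. JQ1 mouse 1 did not detect Mycl either and the interval reaches below 0, so a decrease is not excluded. This bound sets the JQ1 mean against the higher, on each control array, of the probe's own level and that of the dimmest detected probe.

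Max encodes the partner without which the MYC proteins do not bind the E-box. It read 4.84 and 4.98 in the controls and 4.83, 5.49 and 5.46 in JQ1 mice 1, 2 and 3. JQ1 mice 2 and 3 were above the controls and JQ1 mouse 1 was below them, so that the groups overlapped. The difference of 0.35 (SE 0.23) had an adjusted p of 0.225, with a 95% interval from -0.13 to 0.82. No control array detected Max, so the ratio was again taken at the bound, which was 1.00-fold. JQ1 mouse 1 did not detect Max either and the interval includes negative values, so a decrease is not excluded. Without JQ1 mouse 1 the difference was 0.56 with an adjusted p of 0.0426. That choice keeps only the JQ1 mice through which Max passed the filter, so this call is no support for a rise. Mga, the largest protein of the network, which carries a T-box beside its helix-loop-helix domain, was not tested. Its first probe read 5.17 and 4.74 in the controls and 5.32, 4.85 and 4.81 with JQ1, and its second, below detection on all arrays, 4.64 and 4.54 against 4.81, 4.57 and 4.46. The values of the groups overlapped for both probes.

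Mnt is the most widely expressed of the repressors that pair with MAX. Its normalized log2 level was 5.64 and 5.41 in the controls and 4.95, 5.26 and 5.01 in the JQ1 mice. Both controls were above all 3 JQ1 mice, by the least between control mouse 2 and JQ1 mouse 2. The means of 5.52 ± 0.16 (SD, n = 2) and 5.07 ± 0.16 (SD, n = 3) differed by -0.45 (SE 0.20, 95% interval -0.87 to -0.024), and the adjusted p of 0.0804 was above 0.05. The 2 arrays of control mouse 1 differed from each other by 0.35 for this probe, nearly as much as the groups did. With the second of these arrays alone the adjusted p was 0.0467, and without the intensity trend in the variance it was 0.0463.

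The MXD proteins are repressors that typically appear as cells leave the cell cycle and differentiate. Mxd3, which in the mouse is linked to S phase rather than to arrest, read 4.61 and 4.44 in the controls and 4.69, 4.44 and 4.47 with JQ1, below detection in every mouse. Mxd1, the founding MXD member, which rises during differentiation of blood and skin cells, had 2 kept probes that did not move alike. Its first probe was flat. It read 7.13 and 7.12 in the controls and 7.21, 7.10 and 7.05 with JQ1, a difference of -0.011 (SE 0.17, adjusted p = 0.964) whose 95% interval ran from -0.36 to 0.34. The second probe read 6.78 and 6.97 in the controls and 6.53, 6.35 and 6.16 with JQ1, so that both controls were above all JQ1 mice. It fell by 0.52 on the log2 scale (SE 0.18, adjusted p = 0.0276), a level 1.44-fold lower with JQ1. This call was lost when any mouse other than JQ1 mouse 1 was left out, with adjusted p-values of 0.0519 without control mouse 1, 0.160 without control mouse 2, 0.0701 without JQ1 mouse 2 and 0.0976 without JQ1 mouse 3. The third Mxd1 probe, below detection throughout, read 4.53 and 4.64 in the controls and 4.77, 4.50 and 4.64 with JQ1.

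Mxi1 encodes a repressor of the same class that antagonises MYC in several tissues. It read 5.62 and 5.79 in the controls and 5.84, 5.20 and 6.23 in the JQ1 mice. JQ1 mouse 2 was the lowest and JQ1 mouse 3 the highest of the 5 mice, so that the treated group enclosed the controls. The difference was 0.052 (SE 0.24, adjusted p = 0.881, 95% interval -0.46 to 0.56). The arrays of control mouse 1 differed by 0.53 for this probe, the largest gap among the kept network probes.

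Mxd4, an MXD repressor found in many differentiated tissues, gave the clearest signals of the network and also contradictory ones. Its first probe had raw intensities of 1259.4, 1191 and 1029.5 on the control arrays, the first pair from mouse 1, against 1718.4, 1725.9 and 1959.5 in JQ1 mice 1, 2 and 3. Its second probe had 1105.9, 1082.5 and 816.8 on the control arrays against 503.4, 570.6 and 495.7 with JQ1. The first probe was thus brighter, and the second dimmer, in every JQ1 mouse than on any control array, before any normalization. The third probe had 364.3, 307 and 284.6 on the control arrays and 219.1, 240.1 and 220.9 with JQ1, again dimmer without overlap.

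**Figure D2:**
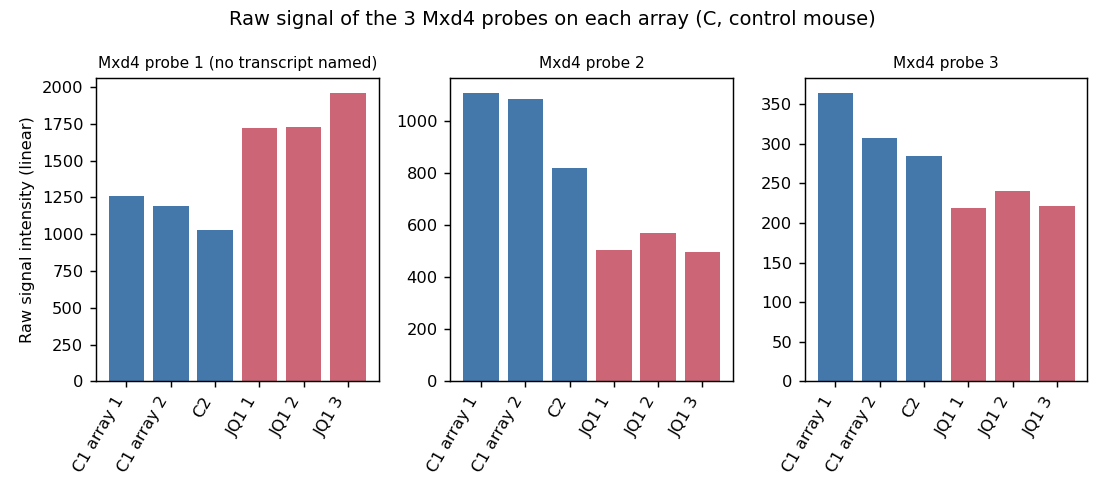
Raw signal intensity (vertical axis, linear, from 0, with its own range in each panel) of the 3 Mxd4 probes on each of the 6 arrays, blue for control and red for JQ1. Each bar is 1 array. Probe 1 lies between 1718.4 and 1959.5 in the JQ1 mice, above every control array, while probes 2 and 3 lie below every control array.

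After normalization, the first Mxd4 probe read 9.86 and 10.11 in the controls and 10.89, 10.81 and 11.00 with JQ1. Its means were 9.98 ± 0.18 (SD, n = 2) and 10.90 ± 0.0968 (SD, n = 3). It rose by 0.92 (SE 0.13, adjusted p = 2.82e-05), or 1.89-fold, but read -0.34 with arrays scaled to equal Sertoli cell marker means. The second read 9.69 and 9.77 in the controls and 8.89, 8.99 and 8.71 with JQ1, and fell by 0.87 on the log2 scale (SE 0.14, adjusted p = 9.75e-05), to a level 1.82-fold lower. The third read 7.63 and 7.99 in the controls and 7.23, 7.35 and 7.11 with JQ1, and fell by 0.59 on the log2 scale (SE 0.17, adjusted p = 0.00973), to a level 1.50-fold lower. The third probe lost its call without control mouse 2, with a difference of -0.41 and an adjusted p of 0.147. No Mxd4 probe reached the 2-fold change that the study's methods required.

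The platform annotation ties the second and the third probe, which fell, to the same RefSeq transcript of Mxd4, and gives no transcript for the first, which rose. Among the 16 network probes only this 1 lacked a transcript, as did 579 of the 34885 probes with a single gene symbol. Probe sequences were not used here, so the part of the locus, or the strand, that each probe reads was not checked, and which probe reports the Mxd4 protein-coding mRNA cannot be told apart from these values. Opposite calls within a gene were uncommon. Of 4148 genes with at least 2 kept probes, 79 (1.90%) had probes past the test in both directions, Mxd4 among them. The spread of 1.79 between the log2 differences of the Mxd4 probes ranked 27th of these genes, whose median spread was 0.31. Mxd1, with a spread of 0.51, ranked 1126th. Genes that mixed kept probes with and without a transcript showed opposite calls in 4 of 140 cases (2.86%), and the others in 75 of 4008 (1.87%).

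Over the network, 1 of the 9 kept probes rose, where 21.6% of all kept probes did, and 3 fell, where 22.6% of all did. With the study's further demand of a 2-fold change, 0 network probes passed as higher and 0 as lower, beside 6.92% and 3.11% of all kept probes. The groups did not overlap for 6 of the 9 probes, a share close to the 64.0% of all kept probes. These 6 include Mycl, which passed the filter only through JQ1 mice. Counted by the brightest kept probe per gene, 1 of 6 genes rose, Mxd4, and none fell, where 25.0% of all genes rose and 21.6% fell. With the dimmest kept probe the count was 0 higher and 2 lower, Mxd1 and Mxd4. The median log2 difference was 0.20 over the 6 genes, or 0.0043 with Mycl and Max at their bounds, beside 0.00032 over all 11755, and -0.011 over the 9 probes, beside -0.041 over all kept probes. Without control mouse 2 the third Mxd4 probe was at -0.41 and the second Mxd1 probe at -0.43. Without JQ1 mouse 1 the probes and genes higher were 2 each. The addition was Max, then tested only on the JQ1 mice that had passed it through the filter.

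**Figure D3:**
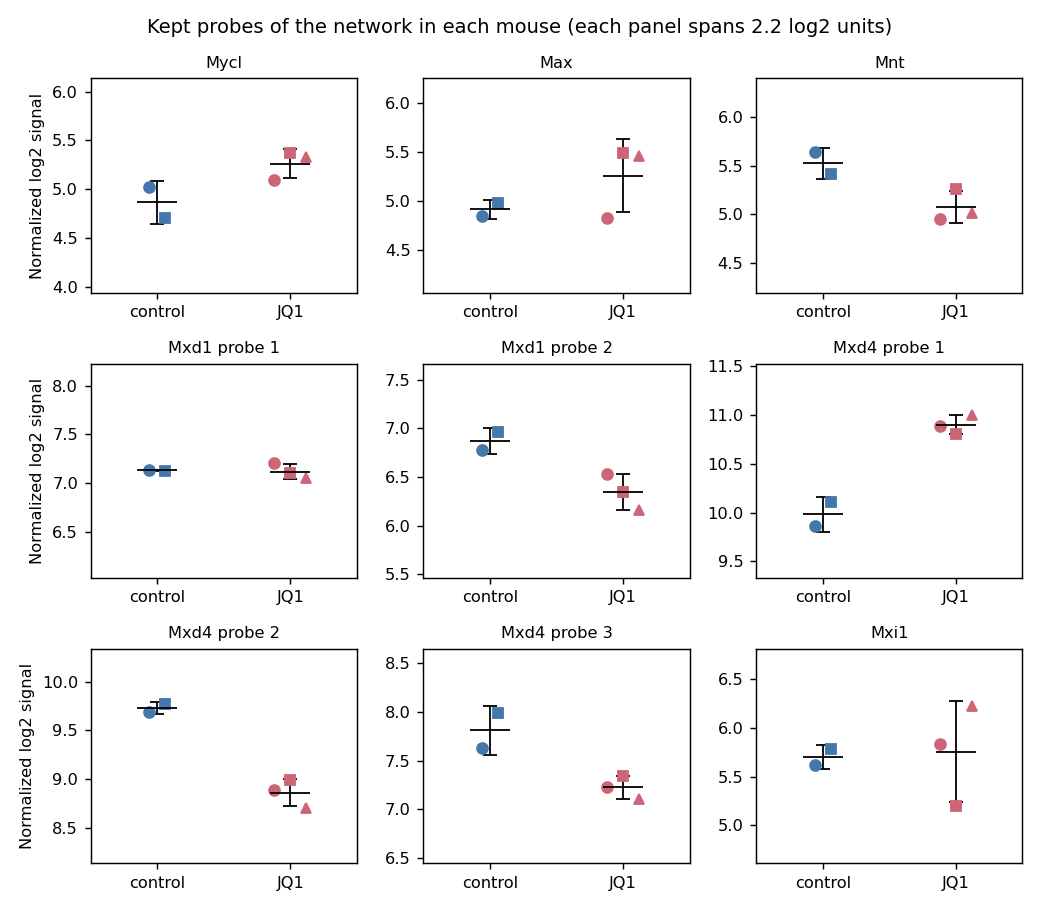
Normalized log2 signal (vertical axes, each spanning 2.2 log2 units) of the 9 kept network probes in each mouse, with control in blue and JQ1 in red. Points are mice (circle, mouse 1; square, mouse 2; triangle, mouse 3), horizontal lines are group means and bars are the SD. The groups overlap for Max, Mxi1 and the first Mxd1 probe.

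**Figure D4:**
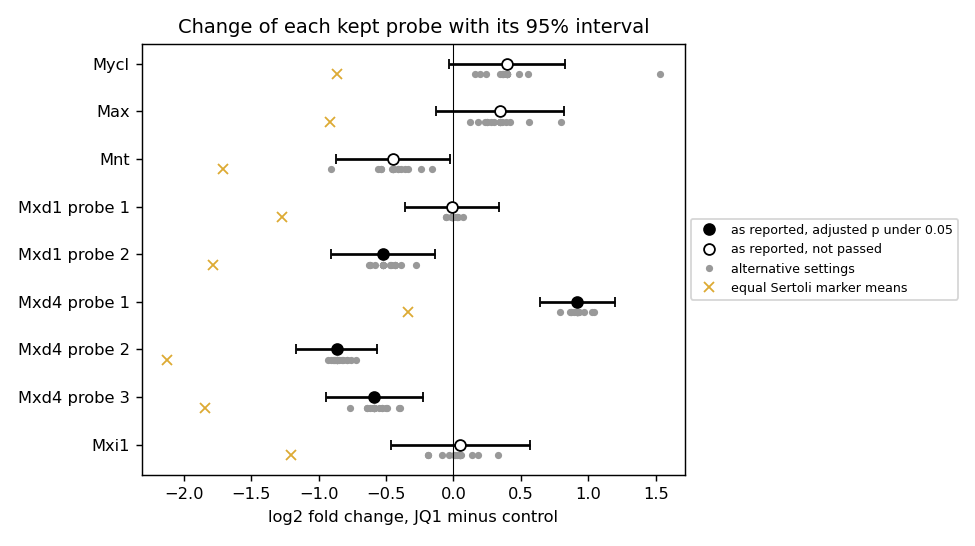
Log2 difference between JQ1 and control (horizontal axis) of the 9 kept network probes (vertical axis), with its 95% interval. Filled circles have an adjusted p under 0.05, grey dots are other processing settings, and crosses mark arrays scaled to equal Sertoli marker means, where all 9 differences, the first Mxd4 probe at -0.34 included, are below 0.

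The direction of these changes rests on a scale that gives all arrays the same distribution of signal. Marker transcripts of several testis cell types differed between the groups. Of 7 measured Sertoli cell markers of 12 listed, 6 rose, with a median of 1.34, and their summed linear signal went from 11941 to 13372 in the controls to 30948 to 36892 with JQ1. All 4 measured Leydig cell markers of 6 rose (9093 to 10641 against 19017 to 26423), as did 4 of 5 peritubular and stromal markers of 6 (4278 to 4871 against 9173 to 11816) and 3 of 4 spermatogonial markers of 8 (1062 to 1135 against 1679 to 1949). The spermatogonial marker that did not pass was Zbtb16, at -0.058 (adjusted p = 0.830). The other kept probe of Kit gave 0.37 (adjusted p = 0.138), and that of Sohlh1 rose by 0.43 (adjusted p = 0.0207). Of 7 spermatocyte markers of 8, 5 fell (42434 to 45891 against 30026 to 35439), and 2 of 7 round spermatid markers of 8 fell. By their brightest probes none of the 8 elongating spermatid markers passed the test in either direction, but other kept probes of Akap4 (-1.11 and -0.43) and Odf2 (-0.85 and -0.50) fell past it, with adjusted p-values of 3.87e-05, 0.0213, 0.000517 and 0.0267. Macrophage markers rose in 2 of 3 measured, erythroid markers in 1 of 2 and endothelial markers in 0 of 4. In RNA of a whole testis, fewer cells of a type and less RNA per cell cannot be told apart, and the part of these shifts in the network's differences was not tested. With arrays scaled to equal means of the Sertoli markers, the median difference of all kept probes moved to -1.30. This scaling moves the difference of every probe by the same amount, so their order is unchanged by construction. On that scale 0 network probes were higher and 8 lower. The first Mxd4 probe was at -0.34 (adjusted p = 0.0833), its second probe at -2.13 and Mnt at -1.71.

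The genes most like the members over the 5 mice were found by the Euclidean distance between log2 profiles centred on the control mean. Closest to the brightest Mxd4 probe were Ubp1, Spg20 and Dctpp1, at distances of 0.0447, 0.0477 and 0.0706. Closest to Mnt were Tbrg1, Znrd1as and Shc3, at 0.0724, 0.0726 and 0.0734. Closest to Mycl were Abhd4, Adhfe1 and Zfp449, at 0.0670, 0.0670 and 0.0896. Such profiles were common on this array, with 2977 genes within 1 log2 unit of Mxd4, 5969 of Mnt and 5484 of Mycl.

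The network works with a second branch, with corepressors and cofactors, and on target genes, which were followed as 9 lists of 115 genes. On the array 108 were present and 93 were measured, of which 34 rose, 11 fell and 48 did not pass. Each count in a list is to be read beside the 25.0% of all measured genes that rose and the 21.6% that fell. Without control mouse 1 the number lower was 7. The MLX branch uses MLX in place of MAX and senses glucose and nutrients. Mlxipl, which encodes the carbohydrate-responsive factor ChREBP, was at 6.42 and 6.51 in the controls and 8.38, 8.61 and 8.47 with JQ1, well separated, and rose by 2.02 (SE 0.16, adjusted p = 7.09e-08). Its other kept probe rose by 0.80 (adjusted p = 0.00179). Mlxip, which encodes the paralog MONDOA, rose by 0.72 (adjusted p = 0.00603), and Mlx itself did not reach the filter. Without control mouse 2 only 1 of these passed. Among other factors that bind E-boxes without MAX, 2 of 4 measured genes rose, Tfe3, a regulator of lysosomal genes, by 0.83 (adjusted p = 0.00121) and Usf1 by 0.73 (adjusted p = 0.00411), and 0 fell. The other kept probe of Srebf2, whose brightest probe did not pass, fell by 0.60 in log2 units (adjusted p = 0.0239).

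Of the 11 Polycomb partners of MGA, all measured, 1 rose and 2 fell, with a median of -0.0012. Tfdp2, which encodes a dimer partner of E2F proteins, rose by 0.97 (adjusted p = 0.000349). Its other kept probes gave 0.69, 0.64, 0.31 and 0.25, of which the last 2 did not pass. L3mbtl2 fell by 0.48 in log2 units (adjusted p = 0.0325). Pcgf6, the Polycomb ring finger subunit specific to this complex, fell by 0.33 on the log2 scale (adjusted p = 0.0447). Neither fall passed without control mouse 1, control mouse 2, JQ1 mouse 2 or JQ1 mouse 3, each of which left 0 of the list lower, and without control mouse 2 or JQ1 mouse 1 the number higher was 2. Of the SIN3 corepressor that MXD and MNT recruit, 5 of 13 genes rose and 0 fell, with a median of 0.063. The histone chaperone gene Rbbp7 was at 8.78 and 8.74 in the controls and 9.69, 10.36 and 10.10 with JQ1 and rose by 1.29 (SE 0.17, adjusted p = 8.89e-06), the only gene of this list past 2-fold, and its other 3 kept probes rose by 1.36, 1.30 and 0.92. The deacetylase gene Hdac2 rose by 0.64 (adjusted p = 0.000517), Suds3 by 0.58 (adjusted p = 0.00148) and Rbbp4 by 0.54 (adjusted p = 0.0107). Other kept probes of Rbbp4 gave 0.71 (adjusted p = 0.00367) and 0.065 (adjusted p = 0.835). Without control mouse 2 the number higher was 3, and without JQ1 mouse 3 the number lower was 1.

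Of 14 MYC cofactors, 2 rose, 5 fell and 7 did not pass, with a median of -0.11, where 25.0% of all genes rose and 21.6% fell. Without control mouse 1, or without JQ1 mouse 3, 1 was higher. Hcfc1, a host cell factor that binds MYC, rose by 0.99 (adjusted p = 0.000106). The acetyltransferase gene Kat5, which encodes TIP60, fell by 0.85 on the log2 scale (adjusted p = 0.000477), the SWI/SNF subunit gene Smarcb1 fell by 0.78 in log2 units (adjusted p = 0.000652) and Ep400, of the TIP60 complex, fell by 0.69 on the log2 scale (adjusted p = 0.00067). Of 13 measured genes of MYC protein turnover, 5 rose and 2 fell, while 3 were higher without control mouse 1 or without JQ1 mouse 2. The ubiquitin ligase gene Trim32 rose by 1.13 (adjusted p = 3.42e-06), from 9.43 and 9.51 to 10.46, 10.66 and 10.69, but its other kept probe gave 0.14 (adjusted p = 0.592). Aurka, a mitotic kinase gene whose product stabilises MYCN, fell by 0.94 on the log2 scale (adjusted p = 4.93e-05). Huwe1, another ligase gene, was detected in no control mouse, so this probe passed the filter only through the JQ1 mice. Its difference of 0.94 had an adjusted p of 0.00207 and is among the 5 counted as higher, but this call is no support for a rise. The ratio at its bound was 1.50-fold, and its other kept probe gave -0.10 (adjusted p = 0.731). The deubiquitinase gene Usp36 rose by 0.92 (adjusted p = 0.0036). The brightest probes of Usp37 and Gsk3b did not pass. Another kept probe of each did, at -0.79 (adjusted p = 0.00086) and 0.53 (adjusted p = 0.00906). The median of this turnover list was 0.21, or 0.081 with Huwe1 and Skp2, also undetected in the controls, at their bounds.

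Of 21 measured genes that MYC activates in other cells, 9 rose and 0 fell, with a median of 0.37, where 25.0% of all genes rose and 21.6% fell. Only 6 were higher without JQ1 mouse 2, and 2 were lower without JQ1 mouse 1. The 9 include Polr1b (adjusted p = 0.0193), which no control mouse and 2 JQ1 mice detected, and whose bound is under 1-fold, so that no fold is given. It passed the filter only through JQ1 mice, so its call is no support for a rise. With it and Eif4e, also undetected in the controls, at their bounds the median was 0.31. The leaders were the purine synthesis gene Gart, which rose by 0.99 (adjusted p = 6.86e-05), the pyrimidine synthesis gene Cad, by 0.98 (adjusted p = 0.000525), the nucleolin gene Ncl, by 0.97 (adjusted p = 0.000305), and the cell cycle kinase gene Cdk4, by 0.77 (adjusted p = 0.000925). Genes that MYC represses with MIZ1 rose as well, 5 of 6 measured, with 0 lower and a median of 0.67. Of these 3 were higher without control mouse 1 or without JQ1 mouse 2, and 1 was lower without JQ1 mouse 1. The stress gene Gadd45a was at 6.38 and 6.73 in the controls and 8.26, 8.20 and 8.24 with JQ1 and rose by 1.68 (SE 0.17, adjusted p = 5.62e-07). The cell cycle inhibitor genes Cdkn1a and Cdkn2b rose by 1.14 (adjusted p = 2.79e-05) and 0.68 (adjusted p = 0.00252), and Ndrg1 by 0.66 (adjusted p = 0.00718). The other 12 activated genes and the other 1 repressed gene, Ddit3 at -0.34 (adjusted p = 0.0883), did not pass. On the same arrays 3 of 4 measured spermatogonial and 6 of 7 Sertoli markers were higher, and their part in these counts was not tested. With equal Sertoli marker means, which lower every difference by the same amount, 1 of the 93 list genes was higher and 80 were lower.

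**Figure D5:**
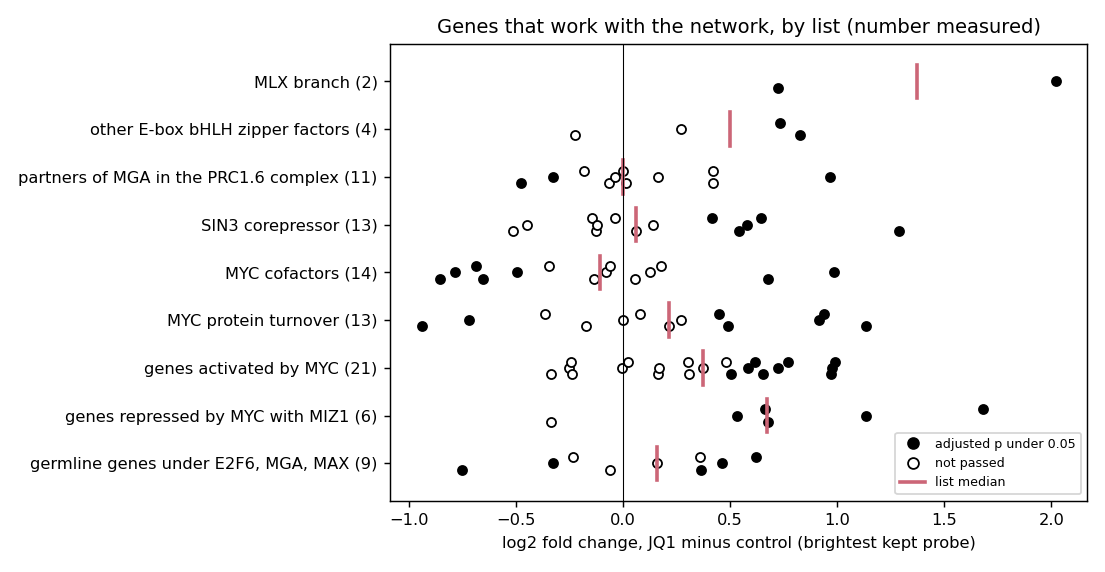
Log2 difference between JQ1 and control (horizontal axis) of each measured gene, by its brightest kept probe, in the 9 lists (vertical axis, number measured in brackets). Filled circles passed the test, red lines are list medians, which run from -0.11 for the MYC cofactors to 1.37 for the 2 genes of the MLX branch. With equal Sertoli marker means, which lower every difference by the same amount, 80 of the 93 genes were lower.

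The last list holds germline genes that E2F6, MGA and MAX repress in embryonic stem cells. An E-box lay in the window of 8 of the 13 genes (61.5%, against 8.09% of all genes), the E2F motif TTCCCGC on either strand in 6 (46.2%, against 5.29%), and both in 5 (38.5%, against 0.611%). The 2 motifs can share at most 1 base. The list was chosen for this regulation, so its motif share describes the choice. The E-box with 15 flanking bases on either side is shown for 3 measured genes that hold it, from RefSeq and GRCm38.p6. These are chr13:112652319-112652354 on the minus strand for Ddx4, chrX:134476519-134476554 on the minus strand for Taf7l and chr6:49395469-49395504 on the plus strand for Stk31.
Ddx4: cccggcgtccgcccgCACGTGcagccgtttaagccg
Taf7l: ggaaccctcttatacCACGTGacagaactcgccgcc
Stk31: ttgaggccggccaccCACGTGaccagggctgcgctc

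The measured genes of this list did not move together. Ddx4, the germ cell RNA helicase gene also called Vasa, was at 9.42 and 9.04 in the controls and 8.65, 8.55 and 8.25 with JQ1, and fell by 0.75 on the log2 scale (SE 0.16, adjusted p = 0.0012). The meiotic cohesin gene Stag3 was at 12.21 and 12.41 in the controls and 12.14, 11.88 and 11.92 with JQ1, and fell by 0.33 on the log2 scale (adjusted p = 0.0409). Taf7l, a germ cell variant of a general transcription factor subunit, was at 9.15 and 8.94 in the controls and 9.54, 9.59 and 9.88 with JQ1, and rose by 0.62 (adjusted p = 0.00231). Stk31 did not pass, at -0.23 (adjusted p = 0.297). The groups did not overlap for Ddx4, Stag3, Taf7l, Stk31, Dazl and Tdrkh, a trait shared by 64.0% of all kept probes. Without an E-box in the window, the RNA-binding protein gene Dazl rose by 0.46 (adjusted p = 0.0181), while its other kept probe gave -0.0036 (adjusted p = 0.991). Tdrkh, also without one, rose by 0.36 (adjusted p = 0.0327), while its other kept probe gave 0.061 (adjusted p = 0.757). Over the whole list 3 of 9 measured genes rose, 2 fell and 4 did not pass, with a median of 0.16, or 0 with Stra8, undetected in the controls, at its bound. The number higher was 1 without control mouse 2 or JQ1 mouse 3, and the number lower was 1 without any mouse other than JQ1 mouse 1. Across the array, 1069 measured genes had an E-box in a window, of which 29.0% rose and 19.5% fell with a median of 0.076, beside 24.7% and 21.9% with a median of -0.0038 for the 8467 without.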

How the data were processed

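Testis RNA of 5 mice was measured on 6 Illumina bead arrays. The authors deposited for each probe and array a raw signal intensity, its detection p-value, and a background-subtracted and normalized intensity. Settings of the scanner software are not used here. The analysis started from the raw intensity. The normexp correction of limma 3.58.1 (R 4.3.3) was applied, with an offset of 16 and the background inferred through the detection p-values, arrays were quantile normalized, and log2 was taken. The 2 arrays of control mouse 1 were averaged. Tests were limited to probes that 2 or more of the 5 mice detected (p under 0.05), and used lmFit and eBayes with an intensity trend, with Benjamini-Hochberg adjustment over 20901 probes. A change passed at an adjusted p under 0.05. The number of arrays limits the precision. Quantile normalization gives every array the same distribution, which hides a shift shared by most probes.

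Symbols came from the platform annotation (34885 probes with 1 symbol, 18 with several, 10378 with none). Updating through gene IDs of GRCm38.p6 changed 0. A gene in a list is represented by its brightest kept probe. All network probes are given, and of each list up to 4 genes past the test with the largest change and any past 2-fold, plus the 3 nearest profiles of the 3 members with the lowest adjusted p. Members and lists were chosen with earlier results of these data known. The fit was tested on simulated data. Alternatives covered background, normalization, filter, technical pair, variance trend, replicate block, Sertoli scaling, probe choice and each mouse left out. The promoter sequence of 1 further gene is not reported here.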

Additional observations from a re-analysis of the deposited data

How the results depend on the processing

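The second Mxd4 probe was lower and past the test under all 18 alternatives (-2.13 to -0.72). The first passed as higher under 17, and under equal Sertoli marker means it turned to -0.34. The third passed under 17. With each mouse left out in turn, the first ranged from 0.79 to 1.04 and the third from -0.76 to -0.41. The second Mxd1 probe kept its call under 10 of 18. It lost it with cyclic loess (adjusted p = 0.0528), no filter (0.0592), the first array of control mouse 1 alone (0.0637) and 4 of the 5 left-out mice.

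The counts moved as follows. Equal Sertoli marker means gave 0 network genes higher and 5 lower, 0 probes higher and 8 lower, and 1 list gene higher and 80 lower, with Mycl at -0.86, Max at -0.91 and Mxi1 at -1.21 turned to lower. Cyclic loess gave 7 list genes lower and the first Mxd1 probe at 0.0724. The second array of control mouse 1 alone gave 1 network gene lower, Mnt, the first Mxd1 probe at 0.0312 and Mxi1 at -0.0816. Without the intensity trend 1 network gene was lower. With the dimmest kept probe per gene 0 network genes were higher and 2 lower. With each mouse left out, network genes higher ranged from 1 to 2, network probes higher from 1 to 2, network probes lower from 1 to 3 and list genes lower from 7 to 14. The first Mxd1 probe ranged from -0.0551 to 0.0242, above 0 without JQ1 mouse 3, and Mxi1 from -0.19 to 0.33, below 0 without JQ1 mouse 3 or control mouse 1. Equal Sertoli marker means lower every difference by the same amount. The cause of the other moves was not tested.

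The labels give the groups shared replicate numbers and state no pairing. Deviations of same-numbered mice correlated at 0.15 and 0.02, and those of control mouse 1 with JQ1 mice 2 and 3 at -0.02 and -0.13. The deviations of 2 control mice mirror each other, so these values cannot show whether a pairing exists. With the replicate block the first Mxd1 probe was at 0.0242 and Mxi1 at -0.19, the second Mxd1 probe was no longer past the test (adjusted p = 0.0814), and no other network probe changed its call. JQ1 mouse 3 has no partner and adds nothing to the blocked difference. Requiring detection in all 5 mice left 6 network probes of 3 genes. Signals near background limit Mycl, Max, Mga and Mnt, and Myc, Mycn and Mxd3 were not measurable.

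A lone control mouse, where the other was left out, is assumed to vary like the JQ1 mice. The choice of detection by the mean of the 2 arrays, added after the data were seen, kept 20554 probes and changed no network call.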
